A study of Mus musculus with 4 samples.

Results

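The 45 genes described here encode the common equipment of differentiating neurons: RNA-binding proteins, the axonal cytoskeleton, synaptic and dense-core vesicle proteins, and axonal adhesion molecules. They were taken by name from a list of pan-neuronal genes, and all 45 were found among the 34866 genes of the deposited expression table. RNA was sequenced from otic vesicles, the epithelial sacs that form the inner ear, of mouse embryos (strain C57/BL6) taken at embryonic day 11.5. The mutant group consisted of 2 libraries titled as Meis2 knockout (KO 1 and KO 2; genotype given as Meis2 mutant), and the control group of 2 wild-type libraries (WT 1 and WT 2). The sources used here give neither the kind of Meis2 allele, nor the driver of any deletion, nor the number of embryos per library. The labels do not say whether the libraries of 1 genotype came from separate embryos. The Y-linked gene Eif2s3y, given below, differed widely between the 2 libraries of each genotype, so their embryo material was not the same. The p-values cover only the spread of these libraries, part of which may be technical. The numbers 1 and 2 come from the sample titles, and the labels do not say what a shared number stands for.

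Neurons of the inner ear arise from neuroblasts that leave the floor of the otic vesicle and gather beside it as the cochleovestibular ganglion. As they leave, they switch on neuron-specific tubulin and neurofilaments, which build the axon, then the proteins that load and release synaptic vesicles. A dissected vesicle can carry more or less of this ganglion, and pan-neuronal genes do not tell one kind of neuron from another.

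The levels are TPM, the authors' deposited transcript abundances, which are scaled for transcript length and to a total of 1000000 in each library. They hold no read counts, so library depth is unknown. By their decimals, the nonzero values below 100 TPM look like means of 3 six-decimal values in KO 2 and of 4 in KO 1, WT 1 and WT 2 (whole to within 0.01 of the last decimal after multiplying back, in 100% of 19120 to 19987 values per library). The labels do not say what was averaged, and the part of this difference in the results was not tested. Meis2 itself was at 73.2 TPM in KO 1 and 76.6 TPM in KO 2, against 79.0 TPM in WT 1 and 88.7 TPM in WT 2. A gene-level value does not show whether an exon is missing, so it does not check the genotype labels. The Y-linked gene Eif2s3y was listed at 0 TPM in KO 1 and at 58.1 TPM in KO 2, against 13.4 TPM in WT 1 and 0.17 TPM in WT 2. KO 2 was thus highest and KO 1 lowest, as for most neuron genes below, but WT 1 stood above WT 2, where most neuron genes had the reverse. The sex of the embryos is not in the labels, and its part in the results was not tested. Differences were tested with limma on log2(TPM + 1) over the 14496 genes that averaged 1 TPM or more, and all fold changes on the log2 scale understate those of low genes. Of the 45 neuron and axon genes, 42 were tested. Nefh, Syt1 and Scg2 had lower means and are given as values only. In each of the 4 libraries, 0 of the 45 genes were at 0.

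The neuron and axon genes did not separate by genotype: the 2 mutant libraries lay at the 2 ends and the wild types between them. Their summed level was 953 TPM in KO 1 and 1990.3 TPM in KO 2, against 1078 TPM in WT 1 and 1475 TPM in WT 2. The KO 2 sum was 2.09 times that of KO 1, and the WT 2 sum was 1.37 times that of WT 1. KO 2 was the highest library and KO 1 the lowest for 32 of the 42 genes tested, against 10.2% of all genes tested. The full order of KO 2, WT 2, WT 1 and KO 1 from high to low was held by 31 of the 42 genes, against 7.2% of all genes. These orders were picked after the values were seen. In RNA from whole tissue, fewer neurons and less RNA of these genes per neuron cannot be told apart.

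**Figure D1:**
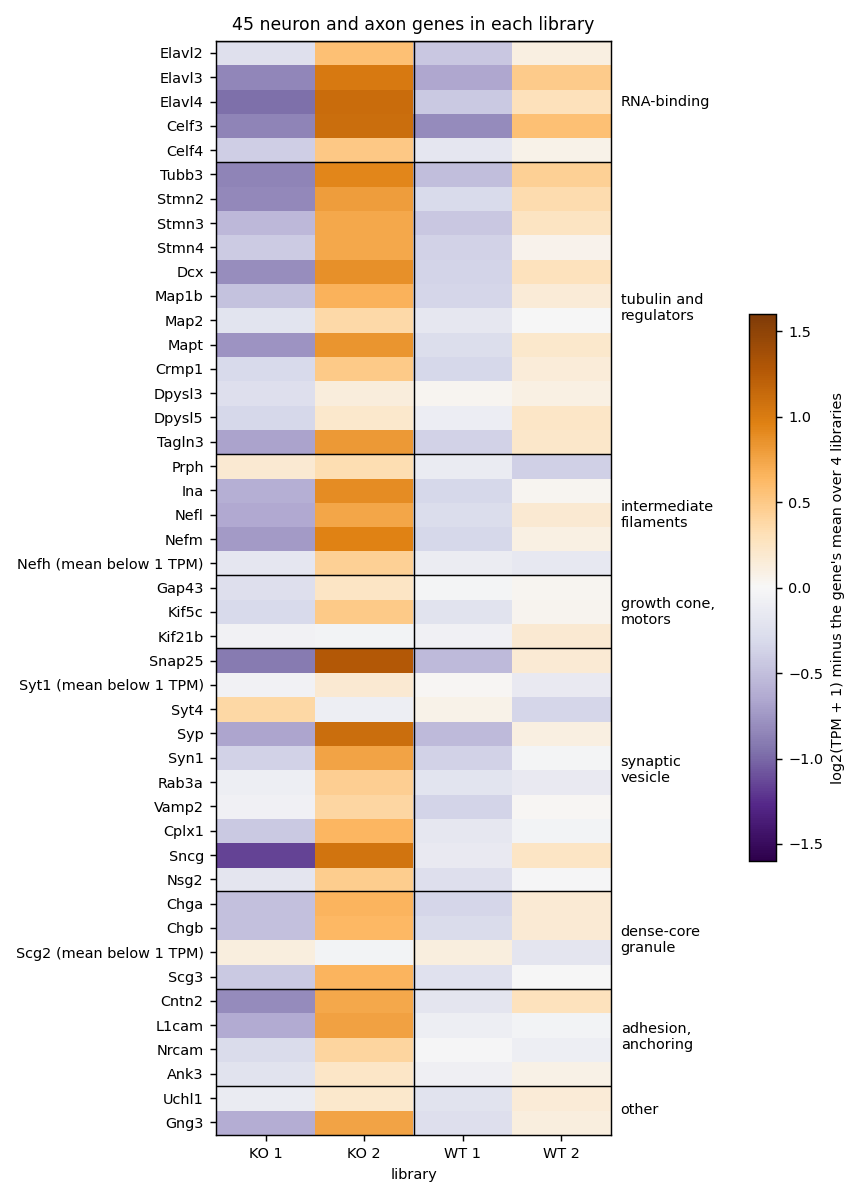
Each row is 1 of the 45 neuron and axon genes, grouped by role, and each column is 1 library, with KO left and WT right. Colour gives log2(TPM + 1) minus the gene's mean over the 4 libraries: most rows are lowest in KO 1 and highest in KO 2, while Prph, Syt4, Scg2 and Kif21b are among the rows with another order.

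In the comparison of KO with WT, 0 of the 42 genes passed the limma adjusted p threshold of 0.05, against 0% of all genes tested (0 of 14496). Each of the 42 had an adjusted p of 1.00 with limma. At an unadjusted limma p under 0.05 there was 1 gene, Prph, against 3.5% of all genes tested. KO averaged above WT for 35 of the 42, against 61.6% of all genes, and the median log2 difference was 0.17, against 0.03 for all genes. The groups overlapped for 40 of the 42. Both KO libraries lay above both WT libraries for 2 genes, Prph and Rab3a, against 19.2% of all genes. Without KO 1 the median was 0.75, without KO 2 it was -0.38 and without WT 1 it was -0.05, so its sign rested on single libraries. For 0 of the 42 did both KO libraries lie below both WT libraries, against 10.5% of all genes. With 2 libraries per genotype, the smallest two-sided p of an exact permutation test is 0.333.

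The genotype difference had opposite signs within the numbers. Between the libraries numbered 1, KO was below WT for 33 of the 42 genes, with a median log2 difference of -0.20, against 41.9% of all genes and a median of 0.03. Between those numbered 2, KO was above WT for 40 of the 42, with a median of 0.50, against 59.4% of all genes and a median of 0.04. Both held together for 32 of the 42 genes, against 22.8% of all genes. KO was above WT within both numbers for 8 genes, against 36.6% of all genes. KO was below WT within both for 1 gene, Dpysl5, against 19.1% of all genes. With 1 library on each side, these within-number differences have no test.

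**Figure D2:**
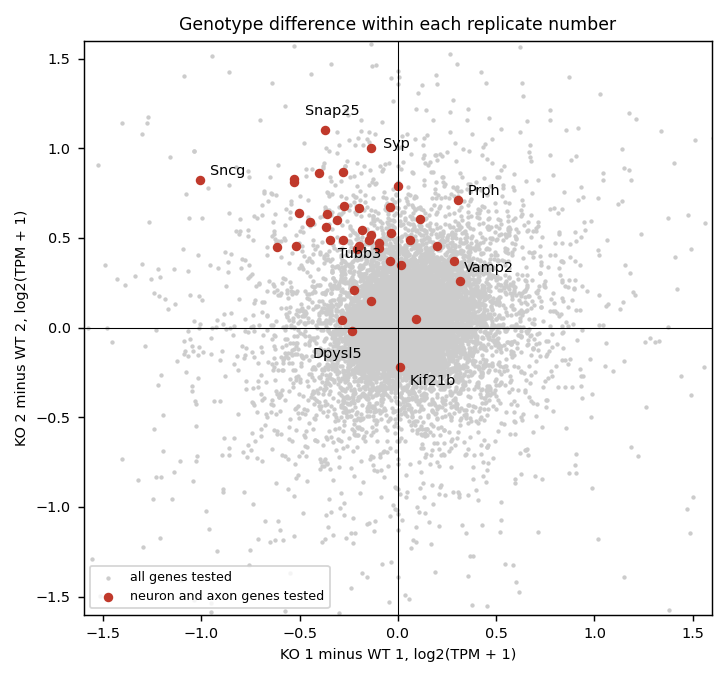
Each point is a gene, with the log2(TPM + 1) difference KO 1 minus WT 1 on the x axis and KO 2 minus WT 2 on the y axis (grey, all genes tested; red, neuron and axon genes; both axes stop at 1.6 either way). Of the 42 red points, 32 lie at the upper left, lower in KO 1 and higher in KO 2 than in the wild type of the same number.

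Set by number instead of genotype, libraries numbered 2 stood above those numbered 1 for 40 of the 42 genes, against 52.5% of all genes tested. The median log2 difference, number 2 minus number 1, was 0.76, against 0.01 for all genes. Both libraries numbered 2 lay above both numbered 1 for 38 of the 42, against 26.3% of all genes. With number as the only term, 0 of the 42 passed the limma adjusted threshold, against 0.166% of all genes (24 of 14496). The smallest limma adjusted p among them was 0.133, for Celf3. At an unadjusted limma p under 0.05 there were 29 genes, all higher in number 2, against 8.55% of all genes in that direction. The median difference between numbers was 0.67 for the 6 genes with a mean under 5 TPM, 0.84 for the 18 between 5 and 20 TPM, and 0.73 for the 18 above. The gap between the 2 mutant libraries was wider than the gap between the 2 wild types for 39 of the 42 genes, against 53.9% of all genes. The median log2 difference was 1.13 for KO 2 minus KO 1 and 0.39 for WT 2 minus WT 1.

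Neuronal RNA-binding proteins showed the pattern most steeply. All 5 genes were higher in both libraries numbered 2 than in both numbered 1, with a median log2 difference between numbers of 1.41, and for all 5 the genotypes overlapped. The Elavl genes encode Hu proteins, which stabilise neuronal mRNAs and steer their splicing. Elavl4 (chromosome 4, 110203722 to 110351909, GRCm38) was at 12.4 TPM in KO 1 and 55.7 TPM in KO 2, against 18.3 TPM in WT 1 and 30.95 TPM in WT 2. Its KO 2 level was 4.50 times that of KO 1, and its WT 2 level 1.69 times that of WT 1. Elavl3 (chromosome 9, 22015005 to 22052023) was at 8.93 TPM in KO 1 and 34.98 TPM in KO 2, against 10.3 TPM in WT 1 and 23.7 TPM in WT 2. Both genes were lowest in one mutant library and highest in the other. Elavl2 was at 10.7 TPM in KO 1 and 19.5 TPM in KO 2, against 9.22 TPM in WT 1 and 13.97 TPM in WT 2, and here WT 1 was the lowest. Its log2 difference between genotypes was 0.33 (SE 0.34; limma adjusted p = 1.00).

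Celf3 (chromosome 3, 94478295 to 94492198), which encodes a splicing regulator, had the widest gap between numbers of all 42 genes. It was at 6.03 TPM in KO 1 and 26.2 TPM in KO 2, against 6.21 TPM in WT 1 and 17.9 TPM in WT 2. The log2 difference of number 2 minus number 1 was 1.67 (SE 0.20; limma unadjusted p = 0.00047, adjusted p = 0.133), and that of KO minus WT was 0.25 (SE 0.80; limma adjusted p = 1.00). Within each number the mutant and the wild type lay near each other beside the gap between numbers. Celf4, a related splicing regulator, ranged from 4.89 TPM in KO 1 to 9.997 TPM in KO 2.

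Letters of known regulatory motifs were looked for in the promoters of these genes. Any link between a motif and the levels across libraries was not tested. RefSeq promoter windows (GRCm38.p6) were at hand for 31 of the 45 genes, 51 windows in all, and the 250 bases before each start were searched on both strands. The cAMP response element TGACGTCA was present in 7 of the 51 windows (13.7%; Celf3, Chgb, Kif5c, Scg2 and Syn1), against 1.55% of all 32851 windows. The E-box CAGCTG, a motif of proneural bHLH factors, was in 21.6% of the neuron gene windows and 13% of all windows, and the E-box CATCTG in 23.5% and 14.4%. The Meis core TGACAG was in 23.5% against 15.9%, and the TATA box TATAAA in 15.7% against 12.4%. The composite Pbx-Meis element, TGAT directly before the Meis core, was in 0 of the 51 windows, against 0.198% of all windows. Windows of 1 gene can overlap, so these shares describe the windows and carry no test. The RE1 element, bound by the repressor REST that keeps neuronal genes silent in other cells, was searched with up to 2 mismatches. It was in 1 of the 51 windows, that of Syn1, with 1 mismatch in its 18 fixed letters, and in 0.0396% of all windows.

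The stretches below show Celf3, the gene with the widest gap between numbers, Elavl4 and Syn1, and also Prph, whose pattern across libraries differed. The windows were picked for holding a motif. Besides Prph, the TATA box was in windows of Celf3, Dcx, Elavl3, Kif5c and Map1b. Each stretch lies before a RefSeq start, holds no base of an annotated GENCODE exon and runs 5′ to 3′ on the strand of the gene. The stretches of Elavl4 and Prph reach the base before the start. Those of Celf3 and Syn1 were cut at an annotated exon, and their last bases lie 32 and 87 bases before the start. Those of Celf3 and Elavl4 lie inside the annotated genes, before internal alternative starts, and those of Syn1 and Prph before the first base of the gene. They carry the motifs in capitals: the cAMP response element and then an E-box in Celf3, both kinds of E-box in Elavl4 (the second read on the other strand) with the Meis core overlapping both, RE1 and then the cAMP response element in Syn1, and the TATA box in Prph. Celf3 lies at chr3:94484108-94484326 (plus strand, 1 of 7 windows), Elavl4 at chr4:110287528-110287777 (minus strand, 1 of 4), Syn1 at chrX:20921005-20921168 (minus strand) and Prph at chr15:99054924-99055173 (plus strand). A match is a description of the letters and not of binding.
Celf3: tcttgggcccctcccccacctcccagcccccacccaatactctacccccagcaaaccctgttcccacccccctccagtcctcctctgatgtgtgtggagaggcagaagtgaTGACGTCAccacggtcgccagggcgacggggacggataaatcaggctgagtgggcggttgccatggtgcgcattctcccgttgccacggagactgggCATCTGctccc
Elavl4: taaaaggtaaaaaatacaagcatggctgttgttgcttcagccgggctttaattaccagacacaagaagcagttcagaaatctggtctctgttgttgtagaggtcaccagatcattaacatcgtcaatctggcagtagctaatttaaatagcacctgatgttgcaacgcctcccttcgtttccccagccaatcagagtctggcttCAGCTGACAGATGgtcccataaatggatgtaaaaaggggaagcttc
Syn1: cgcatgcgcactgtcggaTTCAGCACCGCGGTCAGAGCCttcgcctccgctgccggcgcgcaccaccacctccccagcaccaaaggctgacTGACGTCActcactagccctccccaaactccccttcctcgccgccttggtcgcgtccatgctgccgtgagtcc
Prph: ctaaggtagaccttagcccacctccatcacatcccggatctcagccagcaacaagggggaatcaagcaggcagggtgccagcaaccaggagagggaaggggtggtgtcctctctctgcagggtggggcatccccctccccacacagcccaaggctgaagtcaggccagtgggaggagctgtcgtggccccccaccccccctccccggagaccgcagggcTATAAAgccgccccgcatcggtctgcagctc

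Tubulin, stathmins and other regulators of microtubules and actin formed the largest role, with 12 genes. All 12 were higher in both libraries numbered 2, with a median log2 difference between numbers of 0.90, and for all 12 the genotypes overlapped. KO 2 was highest and KO 1 lowest for 10 of them. Tubb3 (chromosome 8, 123411424 to 123422015), the neuron-specific beta-tubulin, was at 85.2 TPM in KO 1 and 296 TPM in KO 2, against 109 TPM in WT 1 and 211 TPM in WT 2. It averaged 191 ± 149 TPM in KO and 160 ± 72.4 TPM in WT (SD, n = 2 each). Its log2 difference between genotypes was 0.07 (SE 0.67; limma adjusted p = 1.00), and between numbers it was 1.37 (SE 0.20; limma adjusted p = 0.203).

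The stathmins, which bind free tubulin and loosen microtubules in growth cones, followed Tubb3. Stmn2 was at 25.0 TPM in KO 1 and 79.3 TPM in KO 2, against 36.4 TPM in WT 1 and 57.6 TPM in WT 2. KO 2 over KO 1 was 3.17-fold for Stmn2, 2.53-fold for Stmn3 and 2.36-fold for Stmn4. WT 2 over WT 1 was 1.58-fold, 1.67-fold and 1.39-fold in the same genes. Thus all 3 differed more between the mutants than between the wild types. Doublecortin (Dcx), which stabilises microtubules in migrating neurons, and tau (Mapt), an axonal microtubule protein, differed 3.54-fold and 3.51-fold between KO 2 and KO 1, against 1.61-fold and 1.44-fold between WT 2 and WT 1. Tagln3, an actin-binding protein of neurons, was at 29.97 TPM in KO 1 and 86.5 TPM in KO 2, against 37.4 TPM in WT 1 and 56.6 TPM in WT 2.

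Among the 12 genes of this role, Map2, Dpysl3 and Dpysl5 had the smallest log2 differences between numbers, at 0.37, 0.23 and 0.44. Map2, a microtubule protein of dendrites, ranged from 18.9 TPM in KO 1 to 28.6 TPM in KO 2, with WT 1 at 19.5 TPM and WT 2 at 21.9 TPM. Map1b, a microtubule protein of growing axons, was at 22.4 TPM in KO 1 and 50.6 TPM in KO 2, against 24.7 TPM in WT 1 and 35.1 TPM in WT 2. Crmp1, Dpysl3 and Dpysl5 encode collapsin response mediators, which link guidance signals to the cytoskeleton. Dpysl3 was at 45.9 TPM in KO 1 and 60.6 TPM in KO 2, against 56.2 TPM in WT 1 and 58.8 TPM in WT 2, a log2 difference between genotypes of -0.12 (SE 0.15; limma adjusted p = 1.00). Dpysl5 was at 31.6 TPM in KO 1 and 46.7 TPM in KO 2, against 37.3 TPM in WT 1 and 47.2 TPM in WT 2. The 2 wild types of Dpysl3 lay within the range of the mutants, and for Dpysl5 the wild type numbered 2 lay just above it.

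Neuronal intermediate filaments, the struts of the axon, divided into 2 patterns. Nefm (chromosome 14, 68082590 to 68124846), the medium neurofilament subunit, was at 43.8 TPM in KO 1 and 143.5 TPM in KO 2, against 58.2 TPM in WT 1 and 78.3 TPM in WT 2. Nefl, the light subunit, was at 24.5 TPM in KO 1 and 65.96 TPM in KO 2, against 31.8 TPM in WT 1 and 44.3 TPM in WT 2. Ina, which encodes alpha-internexin, was at 11.6 TPM in KO 1 and 34.8 TPM in KO 2, against 14.3 TPM in WT 1 and 18.6 TPM in WT 2. All 3 had KO 2 highest and KO 1 lowest. Exons of Nefl and Nefm share 1108 bases on opposite strands, and the sources used here do not say whether the counting used strand, so reads of the pair may be shared. Nefh, the heavy subunit of mature axons, was at 0.17 TPM in KO 1 and 0.80 TPM in KO 2, against 0.22 TPM in WT 1 and 0.18 TPM in WT 2.

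Prph (chromosome 15, 99055174 to 99058978), which encodes peripherin, the filament of peripheral neurons, had its libraries ordered by genotype and not by number. It was at 9.24 TPM in KO 1 and 10.4 TPM in KO 2, against 7.28 TPM in WT 1 and 5.96 TPM in WT 2. Both mutants lay above both wild types. It averaged 9.82 ± 0.818 TPM in KO and 6.62 ± 0.935 TPM in WT (SD, n = 2 each). On the log2 scale KO was higher by 0.51 (SE 0.15; limma adjusted p = 1.00, against 0.025 unadjusted). It did not pass the threshold over all genes. The log2 difference between numbers was -0.05 (SE 0.27; limma adjusted p = 0.957).

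**Figure D3:**
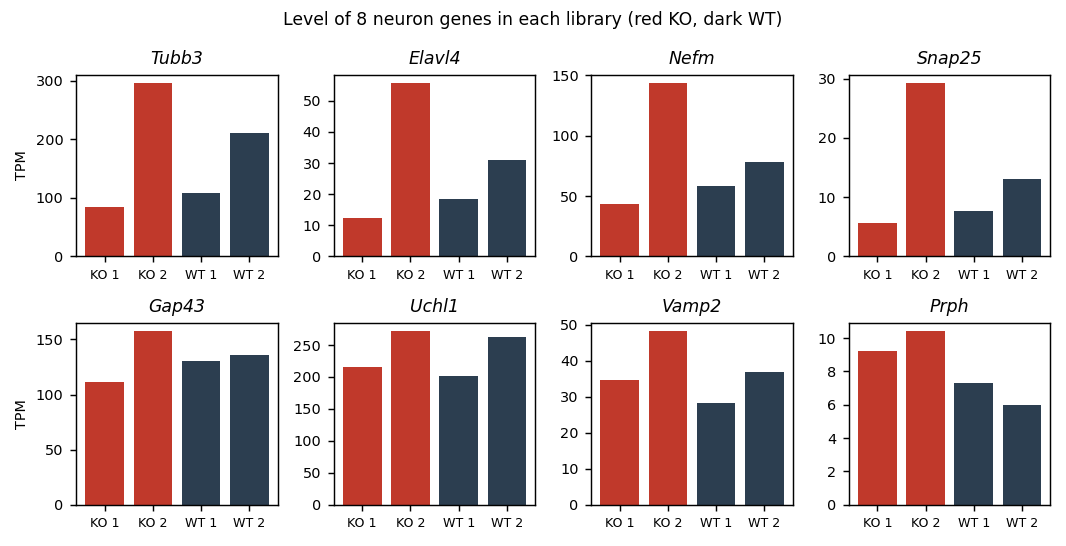
Bars give the TPM of 8 genes in each library (1 bar per library, KO in red and WT in dark blue; each panel has its own axis from 0). Tubb3, Elavl4, Nefm and Snap25 are lowest in KO 1 and highest in KO 2, Gap43 and Uchl1 differ by at most 1.41-fold between the 2 libraries of a genotype, Vamp2 has overlapping genotypes, and both KO bars of Prph stand above both WT bars.

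The growth cone protein gene Gap43 and the motor genes differed less. Gap43 (chromosome 16, 42248442 to 42340651) was at 111 TPM in KO 1 and 157 TPM in KO 2, against 130.3 TPM in WT 1 and 136 TPM in WT 2. It averaged 134 ± 32.5 TPM in KO and 133 ± 4.01 TPM in WT (SD, n = 2 each). The log2 difference of these was -0.01 (SE 0.18; limma adjusted p = 1.00). The difference between numbers was 0.28 (SE 0.11; limma adjusted p = 0.375). Kif5c, a kinesin heavy chain that carries cargo along axons, was at 16.0 TPM in KO 1 and 28.7 TPM in KO 2, against 17.2 TPM in WT 1 and 20.8 TPM in WT 2. Kif21b, another kinesin of neurons, was nearly level, at 16.96 TPM in KO 1 and 17.2 TPM in KO 2, against 16.85 TPM in WT 1 and 20.2 TPM in WT 2. Of these 3 genes, Kif21b had neither KO 2 highest nor KO 1 lowest.

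Among the 10 genes of synaptic vesicles and release, 9 were tested and 7 were higher in both libraries numbered 2. Snap25 (chromosome 2, 136713453 to 136782428), a SNARE protein of the plasma membrane, had the highest ratio of TPM between the mutants of all 42 genes. It was at 5.67 TPM in KO 1 and 29.2 TPM in KO 2, against 7.62 TPM in WT 1 and 13.1 TPM in WT 2. KO 2 over KO 1 was 5.15-fold, and WT 2 over WT 1 was 1.71-fold. Its log2 difference between genotypes was 0.37 with an SE of 0.76 (limma adjusted p = 1.00). Sncg, which encodes gamma-synuclein, a protein of peripheral axons, was at 11.9 TPM in KO 1 and 58.8 TPM in KO 2, against 24.9 TPM in WT 1 and 32.9 TPM in WT 2. It stood at 0.478 times the wild type in KO 1 and at 1.79 times the wild type in KO 2. The first of these ratios was the lowest between KO 1 and WT 1 among the 42 genes.

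Synaptophysin (Syp), a membrane protein of synaptic vesicles, was at 9.00 TPM in KO 1 and 33.2 TPM in KO 2, against 10.01 TPM in WT 1 and 16.1 TPM in WT 2. Synapsin (Syn1), which tethers vesicles, was at 0.92 TPM in KO 1 and 3.18 TPM in KO 2, against 0.92 TPM in WT 1 and 1.42 TPM in WT 2. Cplx1, a regulator of release, ranged from 0.79 TPM in KO 1 to 2.78 TPM in KO 2, and Nsg2, a protein of neuronal endosomes, from 2.79 TPM in WT 1 to 5.26 TPM in KO 2. In all 4 genes KO 2 was the highest library.

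Vamp2 and Rab3a were less spread. Vamp2, the SNARE protein of the vesicle, had the highest mean level of the role over the 4 libraries. It was at 34.6 TPM in KO 1 and 48.1 TPM in KO 2, against 28.2 TPM in WT 1 and 36.9 TPM in WT 2, a log2 difference of 0.33 (SE 0.21; limma adjusted p = 1.00). KO was above WT within both numbers, yet KO 1 was below WT 2. Rab3a (chromosome 8, 70754679 to 70758677), a small GTPase of vesicles, was at 7.37 TPM in KO 1 and 11.3 TPM in KO 2, against 6.73 TPM in WT 1 and 7.09 TPM in WT 2. Both mutants lay above both wild types, with a log2 difference of 0.36 (SE 0.22; limma unadjusted p = 0.169, adjusted p = 1.00).

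The synaptotagmin genes Syt1 and Syt4 behaved otherwise. Syt1, the sensor of fast release, was at 0.80 TPM in KO 1 and 1.13 TPM in KO 2, against 0.90 TPM in WT 1 and 0.69 TPM in WT 2. Syt4, a synaptotagmin of secretory granules, was at 1.93 TPM in KO 1 and 1.12 TPM in KO 2, against 1.36 TPM in WT 1 and 0.77 TPM in WT 2. Syt4 was the 1 gene of the 42 tested for which both libraries numbered 2 lay below both numbered 1, against 21.7% of all genes. These are low levels, at which TPM without counts gives no measure of precision.

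Of the 4 dense-core granule genes, whose products pack peptides and amines for secretion, 3 were tested, and all 3 had KO 2 highest and KO 1 lowest. Scg3 was at 5.57 TPM in KO 1 and 12.98 TPM in KO 2, against 6.54 TPM in WT 1 and 7.80 TPM in WT 2. Chga, chromogranin A, was at 1.95 TPM in KO 1 and 5.53 TPM in KO 2, against 2.26 TPM in WT 1 and 3.65 TPM in WT 2. Chgb, chromogranin B, ranged from 0.55 TPM in KO 1 to 2.38 TPM in KO 2. Scg2, secretogranin II, went the other way at very low levels: it was at 0.44 TPM in KO 1 and 0.28 TPM in KO 2, against 0.43 TPM in WT 1 and 0.15 TPM in WT 2.

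The axonal adhesion molecules and the ankyrin that anchors them all had KO 2 highest and KO 1 lowest. Cntn2, also called TAG-1, a contactin of early axons, was at 2.18 TPM in KO 1 and 8.26 TPM in KO 2, against 3.87 TPM in WT 1 and 5.78 TPM in WT 2. Its log2 difference between numbers was 1.01 (SE 0.28; limma adjusted p = 0.311). L1cam, which bundles axons, was at 5.78 TPM in KO 1 and 16.8 TPM in KO 2, against 8.77 TPM in WT 1 and 9.14 TPM in WT 2. Here the 2 wild types were close together and the mutants lay on either side. Nrcam was at 6.97 TPM in KO 1 and 11.9 TPM in KO 2, against 8.68 TPM in WT 1 and 8.21 TPM in WT 2. Ank3, which encodes ankyrin-G of the axon's initial segment and also of epithelia, was at 29.4 TPM in KO 1 and 40.5 TPM in KO 2, against 32.4 TPM in WT 1 and 36.5 TPM in WT 2.

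Uchl1 (chromosome 5, 66676091 to 66687234), a ubiquitin hydrolase abundant in neurons, had the highest mean level over the 4 libraries among the 42 genes. It was at 215 TPM in KO 1 and 271 TPM in KO 2, against 202 TPM in WT 1 and 262 TPM in WT 2. The genotypes overlapped, with a log2 difference of 0.07 (SE 0.18; limma adjusted p = 1.00), and the difference between numbers was 0.35 (SE 0.060; limma adjusted p = 0.249). Gng3, a G protein gamma subunit of neurons, was at 7.89 TPM in KO 1 and 22.1 TPM in KO 2, against 10.4 TPM in WT 1 and 13.9 TPM in WT 2. The gap between the mutants was 1.26-fold for Uchl1 and 2.80-fold for Gng3. Gng3 shares 398 exon bases with Bscl2 on the opposite strand, and Ina shares 456 with Nt5c2.

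Other pan-neuronal genes shared the gap between numbers, less steeply, but not to the same extent the opposite signs of the genotype difference. Of 32 such genes, 29 were tested. Of these, 27 were higher in number 2 than in number 1 (median log2 difference 0.55), against 52.5% of all genes. Between genotypes 25 were higher in KO and 4 lower (median 0.19), against 61.6% of all genes higher. In this comparison 0 passed the limma adjusted threshold, against 0% of all genes. The order with KO 2 highest and KO 1 lowest was held by 11 of the 29, against 10.2% of all genes. Between the libraries numbered 1, KO was below WT for 14 and above for 15, against 41.9% of all genes below. KO was above WT within both numbers for 14, against 36.6% of all genes. For 11, KO was below WT in number 1 and above in number 2, against 22.8% of all genes. Both KO libraries lay above both WT libraries for 7, against 19.2% of all genes. Tubb2b, a beta-tubulin also made by dividing precursors, was at 293 TPM in KO 1 and 398 TPM in KO 2, against 275 TPM in WT 1 and 308 TPM in WT 2. Nsg1, an endosomal protein, was at 83.4 TPM in KO 1 and 101 TPM in KO 2, against 79.97 TPM in WT 1 and 65.0 TPM in WT 2.

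Transcription factors and receptors of the otic neuron lineage followed number too. All 16 tested of 18 averaged higher in number 2, with a median log2 difference of 1.03, against 52.5% of all genes. The limma adjusted threshold was passed by 0 for number, against 0.166% of all genes, and by 0 for genotype, against 0%. Neurod1, a bHLH factor of newly formed otic neurons, was at 35.5 TPM in KO 1 and 95.3 TPM in KO 2, against 35.7 TPM in WT 1 and 68.1 TPM in WT 2. Ebf3, a transcription factor also made in mesenchyme, was at 59.7 TPM in KO 1 and 57.3 TPM in KO 2, against 47.6 TPM in WT 1 and 50.5 TPM in WT 2, and showed no such gap between numbers. Isl1, a LIM homeodomain factor of sensory and motor neurons, was at 32.7 TPM in KO 1 and 79.3 TPM in KO 2, against 34.8 TPM in WT 1 and 65.8 TPM in WT 2. Pou4f1, a POU factor of sensory neurons, had a wide gap, at 6.77 TPM in KO 1 and 47.7 TPM in KO 2, against 14.2 TPM in WT 1 and 27.4 TPM in WT 2.

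Genes of visceral and motor neurons were divided. Phox2a and Slc18a3, the vesicular acetylcholine transporter, were lower in both libraries numbered 2, where most neuron and axon genes were higher, with Phox2a between 0.247 and 1.34 TPM and Slc18a3 between 0.0341 and 0.788 TPM over the 4 libraries. Isl2 of the same list of 7 went with the pan-neuronal genes, at 5.55 TPM in KO 1 and 29.2 TPM in KO 2, against 13.0 TPM in WT 1 and 21.3 TPM in WT 2. The motor neuron gene Mnx1 was listed at 0 in KO 1, KO 2 and WT 1, and Chat at 0 in KO 2 and at most 0.0811 TPM elsewhere. The list summed to 12.6 TPM in KO 1 and 29.6 TPM in KO 2, against 16.2 TPM in WT 1 and 22.8 TPM in WT 2. Its part in the result was not tested.

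**Figure D4:**
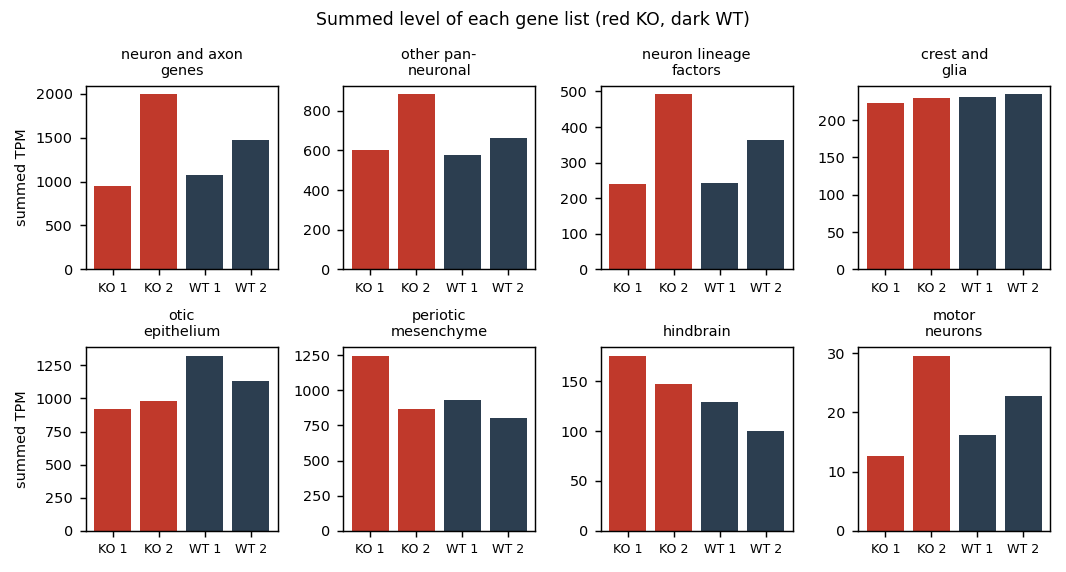
Bars give the summed TPM of each gene list in each library (KO in red, WT in dark blue; each panel has its own axis from 0). The neuron and axon genes run from 953 TPM in KO 1 to 1990.3 TPM in KO 2 with both WT bars between, while the neural crest and glia list stays between 223 and 234 TPM.

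Markers of tissues around the neurons differed less, or differently, between the same libraries. The 9 neural crest and glia genes summed to 223 TPM in KO 1 and 230.2 TPM in KO 2, against 231 TPM in WT 1 and 234 TPM in WT 2. Sox10, a factor of glia and of the otic epithelium, was at 99.8 TPM in KO 1 and 104 TPM in KO 2, against 108 TPM in WT 1 and 118 TPM in WT 2. Erbb3, a receptor of glial precursors, lay between 52.8 TPM in KO 1 and 64.8 TPM in WT 2. The 10 otic epithelium genes summed to 923 TPM in KO 1 and 978 TPM in KO 2, against 1323 TPM in WT 1 and 1134 TPM in WT 2, with Oc90 at 561 TPM in KO 1, 602 TPM in KO 2, 912 TPM in WT 1 and 724 TPM in WT 2, and Epcam between 180.2 TPM in KO 1 and 209.8 TPM in WT 1. The 12 periotic mesenchyme genes summed to 1247 TPM in KO 1 and 866 TPM in KO 2, against 931 TPM in WT 1 and 801 TPM in WT 2, so that KO 1, the lowest library for the neuron genes, was the highest for mesenchyme. KO 1 was also highest for the 2 most abundant of them, Col3a1 at 467 TPM and Twist1 at 179.8 TPM. The 12 hindbrain genes summed to 176 TPM in KO 1 and 147 TPM in KO 2, against 129 TPM in WT 1 and 101 TPM in WT 2, of which Zic1 made up 146 and 129 TPM in the mutants and 106 and 77.2 TPM in the wild types. The hindbrain markers Olig3, Wnt1, Lhx5, Lbx1 and Gad2 were at most 0.22 TPM in each library. The 5 erythroid genes summed to 7746 TPM in KO 1 and 8789 TPM in KO 2, against 6372 TPM in WT 1 and 14770.4 TPM in WT 2, mostly from the embryonic globins Hbb-y and Hba-x. The part of these tissues in the neuron gene values was not tested.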

How the data were processed

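The authors deposited 1 table of gene-level TPM for the 4 libraries. Per the submitters' processing notes, Salmon 0.9.1 and build GRCm38 were used; which annotation release, how transcripts were summed to genes and any use of strand are unstated. Ensembl gene numbers were matched to GENCODE M21 (GRCm38), which named 34652 of 34866 genes and gave coordinates and exons. Column names matched the sample titles.

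Genes averaging 1 TPM or more (14496) were tested on log2(TPM + 1) with limma 3.58.1 in R 4.3.3, with 1 term (genotype, or the title's number), a variance trend over mean level and two-sided p-values adjusted by Benjamini-Hochberg at a threshold of 0.05. Lists were described by counts and medians beside those of all genes tested. The fit was tested on simulated data. The genes, lists and comparisons were chosen with earlier results of these data known. Named genes were, for each of 8 roles, the 2 with the highest mean TPM, the 1 with the smallest p between genotypes and the 1 with the widest gap between numbers, 24 in all, plus Meis2, the 2 most abundant genes of each marker list, and others chosen after their values were seen; some named by this rule are not reported here. Alternatives were other pseudocounts, filters, scalings, moderation without a trend, a replicate block and leaving out each library. Promoter sequences are from RefSeq (GRCm38.p6); 14 genes had none there.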

Additional observations from a re-analysis of the deposited data

How the results depend on the processing

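With another pseudocount, filter, scaling or moderation, 0 genes passed between genotypes, and the median of the neuron and axon genes lay between 0.12 and 0.18 for KO minus WT and between 0.53 and 0.90 for number 2 minus number 1. Genes passing between numbers were 17 to 28, apart from 7 with no filter, against 24 as reported. Ank3 turned to -0.0289 with median-of-ratios scaling and -0.0401 with quantile normalization. With the replicate block, 0 genes passed between genotypes and 17 between numbers, and 3 of the 42 neuron genes had an unadjusted limma p under 0.05 between genotypes (7.14%, against 8.13% of all genes), and 1 without it (against 3.5%); with 2 pairs, the numbers are not known to pair the libraries. A library left out leaves 1 alone, assumed to vary like the others.

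Leaving out each library, 0 to 10 genes passed between genotypes (2 without KO 1, 10 without KO 2) and 9 to 29 between numbers (10 without KO 1, 9 without KO 2, 10 without WT 2), with 0 neuron genes in each. The neuron gene median for KO minus WT was 0.75 without KO 1 (41 of 42 higher), -0.38 without KO 2 (37 of 41 lower), -0.05 without WT 1 and 0.37 without WT 2. For number 2 minus number 1 it stayed between 0.45 and 1.08. Genes whose KO minus WT difference changed sign ranged as follows: Ank3 from -0.22 to 0.23, Celf3 from -0.73 to 1.22, Chga from -0.40 to 0.75, Cntn2 from -0.85 to 0.69, Dpysl3 from -0.32 to 0.0748, Elavl2 from -0.0758 to 0.73, Elavl3 from -0.75 to 1.11, Elavl4 from -0.89 to 1.19, Gap43 from -0.26 to 0.24, Gng3 from -0.55 to 0.83, Kif21b from -0.23 to 0.0176, Kif5c from -0.23 to 0.58, L1cam from -0.55 to 0.84, Nefl from -0.60 to 0.80, Nefm from -0.61 to 1.08, Nrcam from -0.24 to 0.46, Scg3 from -0.31 to 0.78, Snap25 from -0.72 to 1.46, Sncg from -1.20 to 1.02, Tubb3 from -0.82 to 0.96, Uchl1 from -0.12 to 0.26. Prph stayed between 0.38 and 0.63, Rab3a between 0.08 and 0.64 and Vamp2 between 0.10 and 0.56. For number 2 minus number 1, Prph ranged from -0.40 to 0.31. TPM without counts gives no precision for the genes under 1 TPM.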
